A study of Mus musculus with 9 samples.

Results

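Notch signalling and the first genes of the T cell programme were read in bone marrow progenitors of mice through 10 genes, namely Notch1, Notch2, Hes1, Dtx1, Nrarp, Rbpj, Gata3, Tcf7, Bcl11b and Lck. Every probe set that the platform annotation assigned to 1 of these genes alone was taken. This gave 17 probe sets of 8 genes, out of 45037 probe sets of transcripts on the array, of which 34945 had 1 gene (18193 genes). The annotation used here listed no probe set for Tcf7 or Lck, so neither is described further by its level. The study compared E2A-/- mice, Lyl1-/- mice and WT mice with 3 arrays each, on RNA of sorted bone marrow cells that lacked lineage markers and carried CD117 (Kit), SCA-1 (Ly6a) and CD135, the Flt3 receptor, as multipotent progenitors with lymphoid potential do. E2A is an E protein, a basic helix-loop-helix transcription factor made from the gene Tcf3, and Lyl1 is a basic helix-loop-helix factor that pairs with E proteins. The sources used here do not give strain, age, sex or the knockout alleles. The labels call the samples independent, but do not say whether each came from 1 animal.

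Notch receptors sit on the cell surface and are cut when a Delta or Jagged ligand on a neighbouring cell binds them. The freed intracellular part enters the nucleus, joins the DNA-binding protein RBPJ and switches on target genes such as Hes1, Dtx1 and Nrarp. In the thymus this signal starts the T cell programme, in which the transcription factors Tcf7, Gata3 and Bcl11b come on in turn, and the kinase Lck later relays signals of the T cell receptor. In bone marrow progenitors Notch receptors are present while most of that programme is not yet active.

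The arrays were uneven. WT 1 and WT 3 were closer to each other than any other pair (robust spread of the log2 difference 0.0827 over the brightest probe sets, against 0.193 or more), and were averaged as 1 sample. WT therefore counted as n = 2 beside n = 3 for either knockout. The actin 3-prime over 5-prime ratio, which rises with RNA degradation, was 10.1 on E2A-/- 2 and 10.6 on WT 2, against 2.85 to 4.23 on the other 7 arrays. Lyl1 read 79.2 to 92.0 on the Lyl1-/- arrays, against 1352 to 1443 on the WT arrays. For E2A-/-, the Tcf3 probe set above the array floor read 121 to 193, against 164 to 205 on the WT arrays. It does not settle the label, since the sources do not say which part of Tcf3 was removed. Among the sort markers, Flt3 read 863 to 1217 on E2A-/- arrays, 672 to 1136 on Lyl1-/- arrays and 1052 to 1302 on WT arrays. Kit (1452514_a_at) read 327 to 493 on E2A-/- arrays, 314 to 397 on Lyl1-/- arrays and 465 to 508 on WT arrays, with every Lyl1-/- array below every WT array. Such a separation of Lyl1-/- below WT held at 13.8% of all tested probe sets, with WT 1 and 3 averaged. The 3 probe sets of Flt3 and Kit had a median difference of -0.13 in E2A-/- and -0.40 in Lyl1-/-, 0 called by limma, and their part in the members' readings was not tested. Transcripts of 12 mature granulocyte and monocyte genes summed to an intensity of 1391, 16385 and 18660 on E2A-/- 1, 2 and 3, 1509 to 3042 on Lyl1-/- arrays and 1521 to 1708 on WT arrays. The sum over 5 erythroid genes was 1345 on E2A-/- 3 and 368 to 651 elsewhere. Natural killer and innate lymphoid genes (13) summed to 1999 to 2430 on E2A-/- arrays, 1685 to 1866 on Lyl1-/- arrays and 1582 to 1852 on WT arrays, and B lineage genes (12) to 931 to 1027, 1097 to 1236 and 1013 to 1101 in that order. Of the probe sets of these 2 lists, 24 of 26 and 18 of 19 lay near the floor described below, as did 68.3% of all probe sets. Differences in these sums can therefore rest on few genes. Xist was high on E2A-/- 2, Lyl1-/- 1 and Lyl1-/- 2 only, so the sexes were mixed among the knockouts and not in WT.

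Of the 8 genes with a probe set, 4 lay near the floor of the array in their mean over all arrays. The floor was set at an intensity of 105.8, the 95th percentile of 67 probe sets of 35 genes restricted to tissues such as liver, muscle, brain and eye. Of those probe sets 4 lay above it, 2 of Mbp and 1 each of Cela1 and Ins2. Against this floor 11 of the 17 probe sets were near it in their mean over the 9 arrays, as were 68.3% of all probe sets, and 6 were above it. For Hes1, Nrarp, Gata3 and Bcl11b every probe set had such a mean below the floor, though Nrarp 1417985_at read above it on 1 E2A-/- array, 1 Lyl1-/- array and 1 WT array. Notch2, Dtx1 and Rbpj each had 1 probe set near the floor beside others above it, and both Notch1 probe sets were above it. A level near the floor does not show that a transcript is absent, since a probe set can also hybridise poorly.

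**Figure D1:**
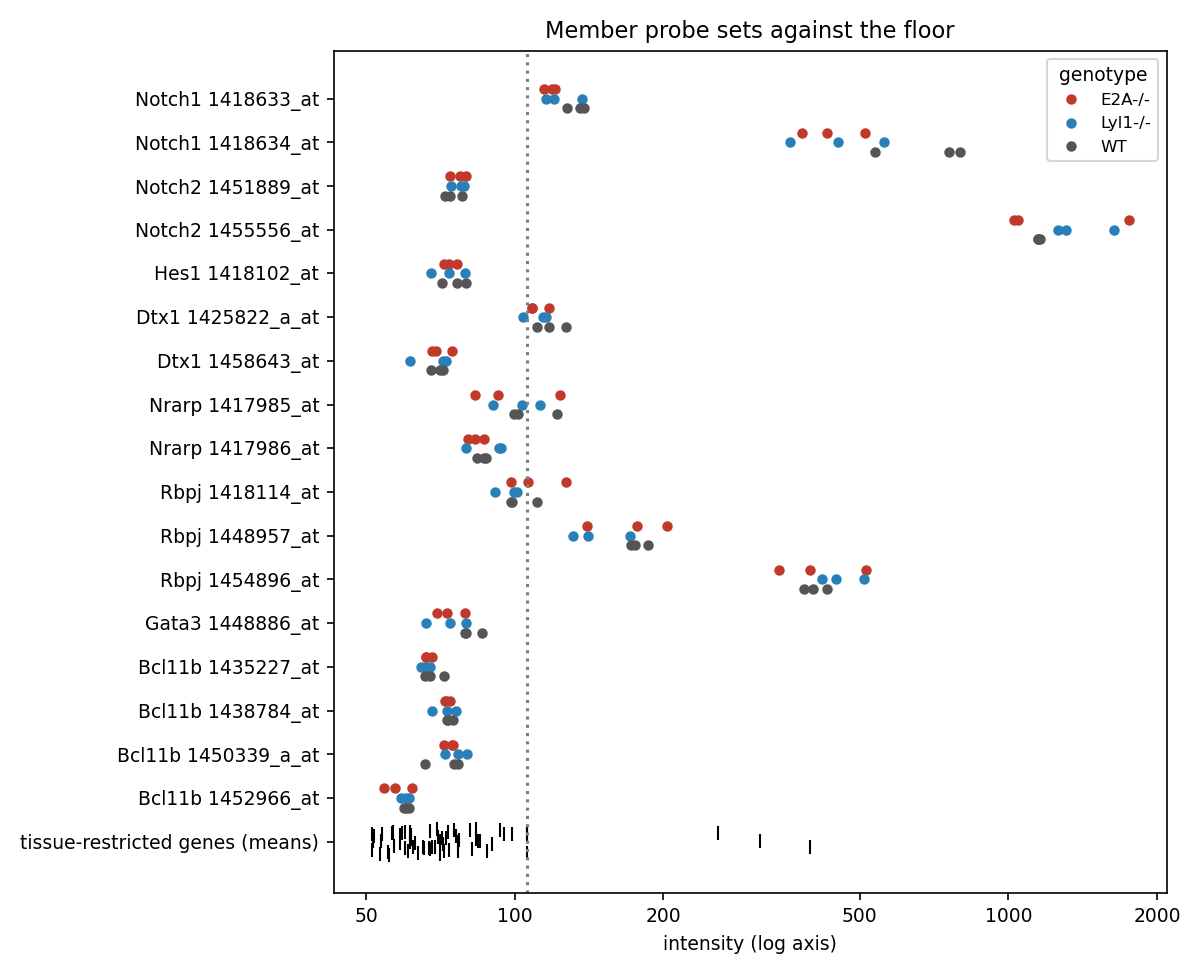
Intensity (log axis) of each of the 17 probe sets on the 9 arrays, E2A-/- above Lyl1-/- above WT in each row, with means of the tissue-restricted probe sets as ticks in the bottom row and the floor of 105.8 as a dotted line. All points of Hes1, Gata3 and Bcl11b lie left of the line, and all points of both Notch1 probe sets, Notch2 1455556_at, Rbpj 1448957_at and Rbpj 1454896_at lie right of it.

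Notch1, the receptor that drives T cell commitment, was the member with the largest measured difference. Its probe set 1418634_at read 512, 381 and 429.6 on E2A-/- 1, 2 and 3, and 798, 537 and 757 on WT 1, 2 and 3. On Lyl1-/- 1, 2 and 3 it read 452, 361 and 559. Every E2A-/- array thus lay below every WT array, while Lyl1-/- 3 lay above WT 2. The other Notch1 probe set, 1418633_at, read 119, 114 and 120.4 on the E2A-/- arrays, 120.1, 116 and 137 on the Lyl1-/- arrays and 127, 138 and 135 on the WT arrays, with the same separation of E2A-/- from WT and the same overlap of Lyl1-/- 3, although WT 2 was here the highest WT array.

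On the log2 scale Notch1 1418634_at averaged 8.77 ± 0.21 in E2A-/- (SD, n = 3), 8.82 ± 0.31 in Lyl1-/- (SD, n = 3) and 9.34 ± 0.38 in WT (SD, n = 2). The difference was -0.56 in E2A-/- against WT (0.677-fold, SE 0.221, 95% interval -1.07 to -0.06, limma adjusted p = 0.576). In Lyl1-/- against WT it was -0.52 (0.697-fold, SE 0.221, 95% interval -1.02 to -0.02, limma adjusted p = 0.584). The intervals are not adjusted for the number of probe sets tested, and neither difference passed the threshold of 0.05. Both comparisons rest on the same WT samples, so they are not independent of each other. The probe set 1418633_at differed by -0.19 in E2A-/- (limma adjusted p = 0.721) and by -0.12 in Lyl1-/- (limma adjusted p = 0.86). Between the knockouts 1418634_at differed by -0.04 (E2A-/- minus Lyl1-/-, 95% interval -0.49 to 0.41).

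The size of the Notch1 difference depended on which WT array it was set against. WT 2 had the lowest WT reading and the high actin ratio of 10.6. Without WT 2 the difference was -0.83 in E2A-/- and -0.79 in Lyl1-/-, and without WT 1 and 3 it was -0.30 and -0.25. E2A-/- 1, whose granulocyte transcripts did not exceed those of WT, read 512, and without E2A-/- 2 and 3 the difference of this single array was -0.34. With sex as a covariate the differences were -0.43 and -0.26. The sign was negative under each of the 24 alternatives in both comparisons, with 0 of them past the threshold. The part of RNA quality, sex and granulocyte transcripts in the Notch1 readings was not tested.

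**Figure D2:**
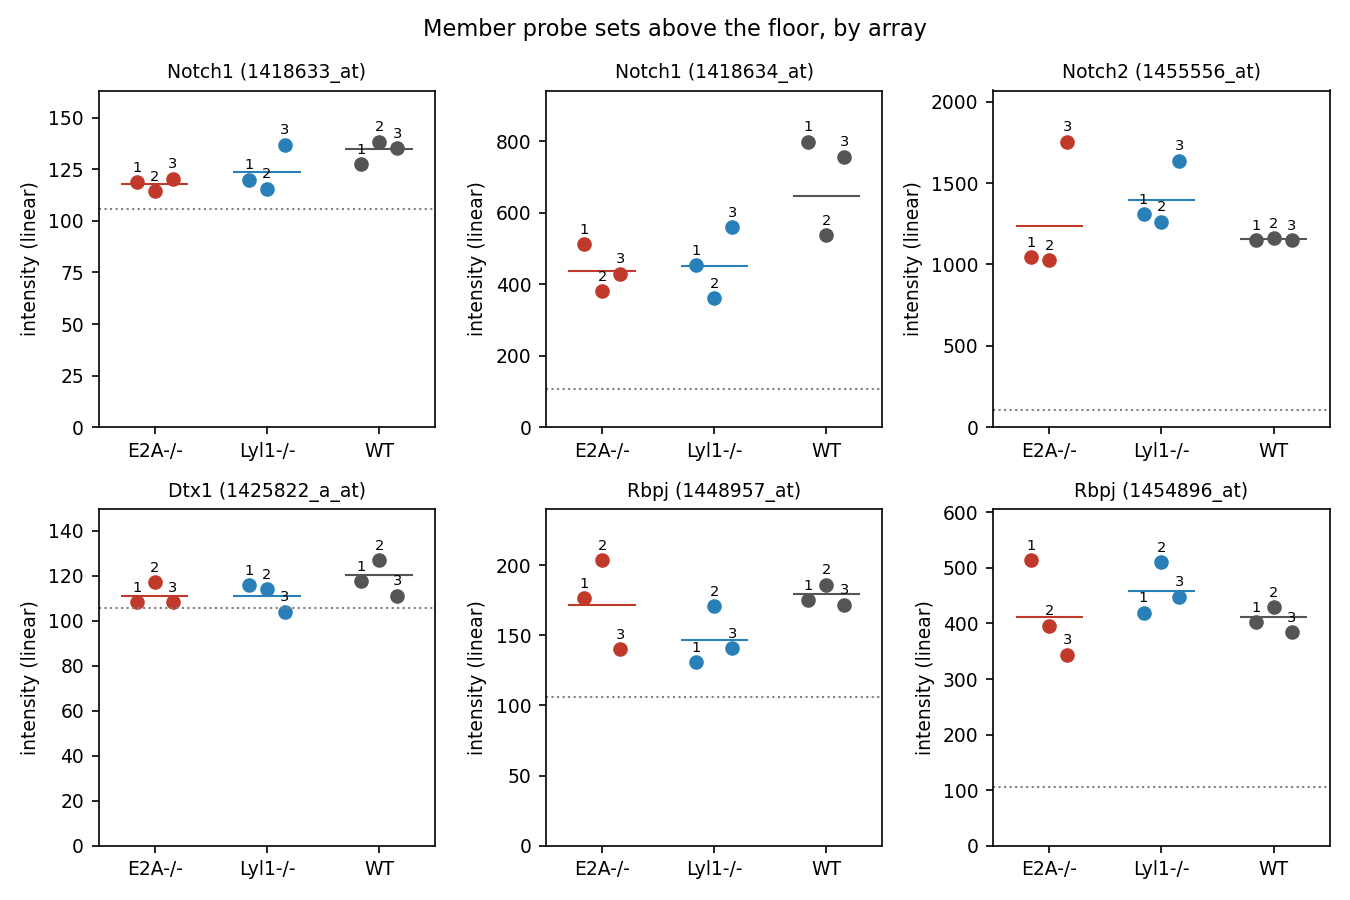
Linear intensity of the 6 probe sets above the floor, with each array numbered by replicate, the line at the mean of log2 values turned back to intensity (n = 3, 3 and 2, WT 1 and 3 counted once) and the floor dotted. Notch1 1418634_at lies at 361 to 559 on the knockout arrays and 537 to 798 on the WT arrays, and Notch2 1455556_at is highest on E2A-/- 3 and Lyl1-/- 3.

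Notch2, a receptor best known in this system for marginal zone B cells, did not share the lower readings of Notch1. Its probe set above the floor (1455556_at) read 1046, 1025 and 1753 on E2A-/- 1, 2 and 3, 1308, 1263 and 1639 on Lyl1-/- 1, 2 and 3 and 1148, 1162 and 1149 on WT 1, 2 and 3. The WT arrays were close together, 2 of the E2A-/- arrays lay below them and 1 above, and all Lyl1-/- arrays lay above. The difference was 0.10 in E2A-/- (SE 0.229, 95% interval -0.43 to 0.62, limma adjusted p = 0.98) and 0.27 in Lyl1-/- (SE 0.229, 95% interval -0.25 to 0.79, limma adjusted p = 0.861). Without E2A-/- 3 the sign in E2A-/- turned, to -0.16, and without Lyl1-/- 3 the Lyl1-/- difference was 0.15. With sex as a covariate the Lyl1-/- difference was 0.52. E2A-/- 3 and Lyl1-/- 3, the highest for Notch2, also had the highest hybridisation spike controls, with geometric means of 3194 and 2633, against 1201 to 2295 on the other arrays, and their part in the reading was not tested. The other Notch2 probe set (1451889_at) stayed at 72.2 to 79.8 on all arrays.

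Rbpj, the DNA-binding partner of activated Notch, had 3 probe sets that did not move together. The probe set 1454896_at read 514, 396 and 343 on the E2A-/- arrays, 419, 510.4 and 448 on the Lyl1-/- arrays and 402, 429.5 and 385 on the WT arrays. Its differences were 0.00 in E2A-/- (95% interval -0.38 to 0.39, limma adjusted p = 1) and 0.15 in Lyl1-/- (95% interval -0.23 to 0.54, limma adjusted p = 0.91). The groups overlapped in both. The probe set 1448957_at read 177, 203 and 140.3 on the E2A-/- arrays, 131, 171 and 141 on the Lyl1-/- arrays and 175, 186 and 172 on the WT arrays, with a difference of -0.07 in E2A-/- (limma adjusted p = 0.98). In Lyl1-/- it stood at -0.29 (SE 0.171, limma adjusted p = 0.743), with each Lyl1-/- array below the lowest WT array, Lyl1-/- 2 by a narrow margin. The third, 1418114_at, lay near the floor at 91.3 to 127, with differences of 0.07 and -0.11.

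The promoters of Notch1 and Rbpj are shown because both deleted genes encode E-box binding factors and Rbpj encodes the nuclear partner of Notch. The windows are the 250 bases before the annotated start from RefSeq (GRCm38.p6), 5′ to 3′ on the strand of the gene, for Notch1 chr2:26503823-26504072 (minus strand) and for the first of 2 Rbpj starts chr5:53590096-53590345 (plus strand). Capitals mark CANNTG, the E-box, and TGGGAA or its reverse complement TTCCCA, the core recognised by RBPJ. The E-box pattern reads the same on both strands, and no marked site overlaps another.
Notch1: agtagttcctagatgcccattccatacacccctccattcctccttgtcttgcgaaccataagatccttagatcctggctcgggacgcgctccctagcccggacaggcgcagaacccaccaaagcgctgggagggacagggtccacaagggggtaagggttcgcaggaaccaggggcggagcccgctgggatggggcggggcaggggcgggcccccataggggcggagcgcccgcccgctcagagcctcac
Rbpj: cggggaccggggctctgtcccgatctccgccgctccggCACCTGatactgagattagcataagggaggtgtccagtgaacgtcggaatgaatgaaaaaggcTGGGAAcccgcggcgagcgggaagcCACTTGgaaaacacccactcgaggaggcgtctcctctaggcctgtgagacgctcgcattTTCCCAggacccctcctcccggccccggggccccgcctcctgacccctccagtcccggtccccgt
The Notch1 window held 0 E-boxes and 0 RBPJ cores, and the Rbpj window held 2 of each. The window of the second Rbpj start, which overlaps the first, held 0 E-boxes and 1 RBPJ core. Of 32851 mouse promoter windows of this length, 66.2% held an E-box and 21.6% an RBPJ core. Promoters were listed for 9 of the 10 genes, with 12 starts. These are matches of letters, not measured binding.

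Among the Notch targets, Hes1 and Nrarp gave little signal in any genotype. Hes1, a repressor and the classical direct target, read 73.6, 76.2 and 71.7 on the E2A-/- arrays, 73.4, 67.6 and 79.1 on the Lyl1-/- arrays and 76.4, 71.2 and 79.5 on the WT arrays, with the groups overlapping throughout. It was not tested, since it rose above the array median on 1 array. Nrarp, a target that dampens the Notch complex, had both probe sets near the floor. The probe set 1417985_at read 92.6, 83.1 and 123 on the E2A-/- arrays, 90.4, 103 and 113 on the Lyl1-/- arrays and 101, 122 and 99.4 on the WT arrays, with differences of -0.17 and -0.12 and overlapping groups. The probe set 1417986_at ran from 79.4 to 93.6, with differences of -0.05 and 0.04. All 4 adjusted p-values by limma were 0.917 or more.

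Dtx1, a ubiquitin ligase of the Notch pathway, had a probe set just above the floor (1425822_a_at). It read 108, 117 and 108 on the E2A-/- arrays, 116, 114 and 104 on the Lyl1-/- arrays and 117, 127 and 111 on the WT arrays. The groups overlapped, and the difference was -0.12 in both knockouts (95% interval -0.34 to 0.11 in each, limma adjusted p = 0.885 in E2A-/- and 0.865 in Lyl1-/-). The other Dtx1 probe set (1458643_at) stayed between 61.2 and 74.4.

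Gata3 and Bcl11b, the T lineage members with a probe set, lay near the floor. Gata3, a zinc finger factor needed from the earliest T cell stages, read 72.8, 79.3 and 69.4 on the E2A-/- arrays, 79.6, 74.0 and 65.9 on the Lyl1-/- arrays and 85.6, 79.7 and 79.1 on the WT arrays. It passed the filter with 5 arrays above the array median, all 3 of them in WT and 2 in the knockouts, so its passing was itself tied to the group with the higher readings. The Gata3 difference was -0.14 in E2A-/- (SE 0.111, limma adjusted p = 0.869) and -0.15 in Lyl1-/- (SE 0.111, limma adjusted p = 0.819). With WT 1 and 3 averaged, the knockout arrays lay below the WT samples, but over single arrays the groups overlapped, with E2A-/- 2 at 79.3 and Lyl1-/- 1 at 79.6 above WT 3 at 79.1. Bcl11b, which locks in T cell identity, had 4 probe sets, and all of their readings lay between 54.2 and 79.8. Its mean differences over these probe sets ran from -0.07 to 0.02 in E2A-/- and from -0.04 to 0.06 in Lyl1-/-, with no test.

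Of the 10 member probe sets tested, 0 passed the threshold in any comparison by limma. Over all 20402 tested probe sets 0.221% passed in E2A-/- against WT, 0.216% in Lyl1-/- against WT and 0.0735% in E2A-/- against Lyl1-/-. At an unadjusted p under 0.05 the count was 1 of 10 in each comparison with WT, Notch1 1418634_at both times, where 8.08% and 8.36% of all tested probe sets stood, and 0 of 10 between the knockouts (7.72%). The E2A-/- samples lay entirely below the WT samples at 3 of the 10, both of Notch1 and, only with WT 1 and 3 averaged, that of Gata3, as did 12.6% of all tested probe sets, and entirely above at 0 (9.39% of all). The Lyl1-/- samples lay entirely below WT at 2, of Rbpj and, with the same averaging, Gata3 (13.8% of all), and above at 1, of Notch2 (11.7% of all). The median difference of the tested member probe sets was -0.09 in E2A-/- and -0.12 in Lyl1-/-, and over all tested probe sets -0.01 and -0.00. Between the knockouts (E2A-/- minus Lyl1-/-) the member differences ran from -0.18 to 0.23, the first for Notch2 1455556_at and the last for Rbpj 1448957_at, with limma adjusted p-values of 0.793 or more. The 10 probe sets come from 6 genes, and probe sets of the same gene are not independent. The widest 95% interval of a member in a comparison with WT, that of Notch2, spanned 0.744-fold to 1.54-fold in E2A-/- and 0.84-fold to 1.73-fold in Lyl1-/-.

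**Figure D3:**
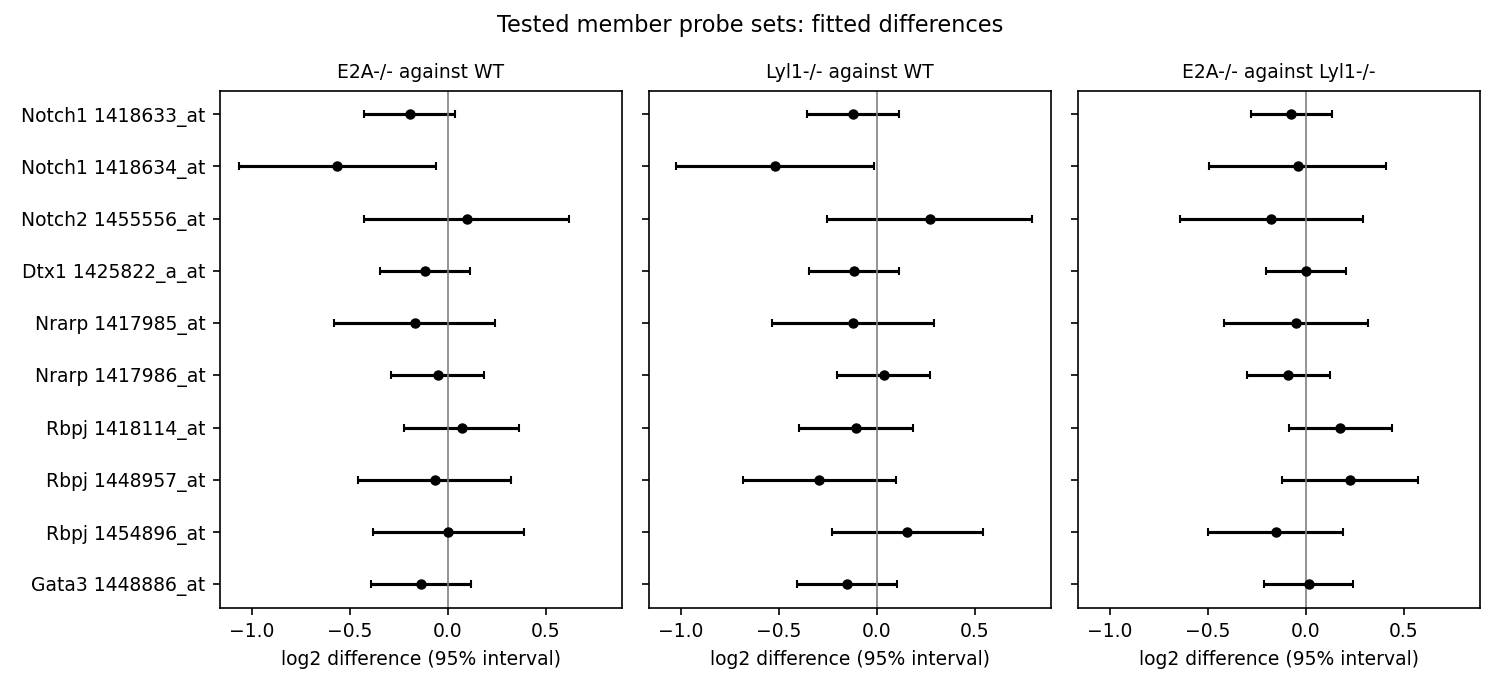
Log2 difference with its unadjusted 95% interval from limma for the 10 tested member probe sets in the 3 comparisons (8 samples in the fit). The intervals of Notch1 1418634_at against WT end at -0.06 in E2A-/- and -0.02 in Lyl1-/-, and the other intervals include 0.

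Across the wider Notch pathway 0 tested probe sets passed the threshold by limma in any of the 3 comparisons. The lists overlap the members: the receptor list holds Notch1 and Notch2, the nuclear list Rbpj, the target list Hes1, Dtx1 and Nrarp, and the T lineage lists the others. Ligands were almost wholly near the floor, where 68.3% of all probe sets lay, with 8 of 9 probe sets of Dll1, Dll3, Dll4, Jag1 and Jag2 there. The exception was Jag2 (1426430_at), at 103 to 108 on the E2A-/- arrays, 117 to 131 on the Lyl1-/- arrays and 103 to 122 on the WT arrays. The receptors Notch3 and Notch4 were near the floor at each of their probe sets.

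The machinery that modifies and cuts the receptors was measured for 18 of 20 listed genes, with 32 tested probe sets and a median difference of 0.00 in E2A-/- and -0.01 in Lyl1-/-. Mfng, the manic fringe glycosyltransferase that tunes which ligand a Notch receptor answers to, had the smallest p of this list in both comparisons. It read 296, 271 and 222 on the E2A-/- arrays, 279, 283 and 284 on the Lyl1-/- arrays and 453, 318 and 503 on the WT arrays. All 6 knockout arrays lay below all 3 WT arrays, and WT 2 was again the lowest of WT. Over all tested probe sets 12.6% lay entirely below WT in E2A-/- and 13.8% in Lyl1-/-, with WT 1 and 3 averaged. The share below WT in both knockouts at once was not computed. The Mfng difference was -0.58 in E2A-/- (SE 0.18, limma adjusted p = 0.418) and -0.46 in Lyl1-/- (SE 0.18, limma adjusted p = 0.524). Without WT 2 it was -0.87 and -0.76, and without WT 1 and 3 it was -0.29 and -0.17. Rfng (1460704_at), its radical fringe relative, stood at -0.45 in E2A-/-, where readings were 156, 145 and 143, against 160, 254 and 163 in WT, so that the value rests on WT 2. Without WT 2 it was -0.12, and the other Rfng probe set stood at 0.02. At an unadjusted p under 0.05 the list had 2 probe sets lower in E2A-/- (5.11% of all tested probe sets) and 1 lower in Lyl1-/- (4.88% of all).

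In the nuclear complex, 19 probe sets of 11 genes were tested, with medians of 0.06 in E2A-/- and 0.00 in Lyl1-/-. At an unadjusted p under 0.05, 2 were higher in E2A-/- (2.97% of all tested probe sets) and 1 in Lyl1-/- (3.48% of all). Hdac1, a histone deacetylase of repressor complexes with many roles beyond Notch, read 364, 369 and 363 on the E2A-/- arrays, 461, 405 and 347 on the Lyl1-/- arrays and 291, 295 and 288 on the WT arrays. Each knockout array lay above each WT array, at a difference of 0.32 in E2A-/- (SE 0.122, limma adjusted p = 0.565) and 0.46 in Lyl1-/- (SE 0.122, limma adjusted p = 0.304). Over all tested probe sets 9.39% lay entirely above WT in E2A-/- and 11.7% in Lyl1-/-, with WT 1 and 3 averaged. Maml1 (1426769_s_at), the Mastermind co-activator of Notch, stood at 0.38 in E2A-/- and 0.25 in Lyl1-/-, with E2A-/- 1 and WT 2 both at 184. Without WT 2 the values of Maml1 were 0.58 and 0.45, and its other tested probe set stood at 0.15 and 0.13. The target list had 13 tested probe sets, with medians of -0.06 and -0.01. Of its 21 probe sets 14 were near the floor, where 68.3% of all probe sets lay. Dtx4, a relative of Dtx1, read 125, 112 and 99.3 on the E2A-/- arrays, 154, 148 and 142 on the Lyl1-/- arrays and 125, 117 and 116 on the WT arrays. At this Dtx4 probe set (1436545_at) the difference was 0.32 in Lyl1-/- against WT (limma adjusted p = 0.476) and -0.09 in E2A-/- against WT. It was -0.41 in E2A-/- against Lyl1-/- (limma adjusted p = 0.407). The other tested Dtx4 probe set, 1455711_at, stood at 0.19 in Lyl1-/- and 0.08 in E2A-/- against WT. Myc, a growth regulator with many inputs beside Notch, read 634, 503 and 331 on the E2A-/- arrays, 481, 531 and 399 on the Lyl1-/- arrays and 581, 603 and 631 on the WT arrays. Its differences were -0.35 in E2A-/- (limma adjusted p = 0.836) and -0.37 in Lyl1-/- (limma adjusted p = 0.787). The E2A-/- value of Myc was -0.10 without E2A-/- 3 and -0.57 without E2A-/- 1, and its sign turned without E2A-/- 2 and 3, to 0.07. Ptcra and Il2ra, targets that mark committed T cell precursors, were near the floor.

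The list of T lineage transcription factors includes genes that progenitors also use. Of its 29 tested probe sets, which lie in 11 genes, 0 passed by limma, and 4 in E2A-/- (5.11% of all tested probe sets were lower) and 1 in Lyl1-/- (4.88% of all) were lower at an unadjusted p under 0.05. Ets1, a factor of lymphoid cells, read 71.0, 118 and 102 on the E2A-/- arrays, 110.3, 113 and 135 on the Lyl1-/- arrays and 146, 151 and 150.1 on the WT arrays, so that every knockout array was below every WT array. The Ets1 difference was -0.66 in E2A-/- (SE 0.199, limma adjusted p = 0.405) and -0.33 in Lyl1-/- (SE 0.199, limma adjusted p = 0.751). With 1 array left out at a time, the E2A-/- value of Ets1 ran from -0.81 to -0.45. Its other 3 probe sets were near the floor, at -0.41 to -0.07 in E2A-/- and -0.28 to -0.06 in Lyl1-/-. Myb (1421317_x_at), needed by most blood progenitors, read 1760 to 2093 on the E2A-/- arrays, 1969 to 2051 on the Lyl1-/- arrays and 2406 to 2550.5 on the WT arrays, at -0.33 (limma adjusted p = 0.418) and -0.29 (limma adjusted p = 0.467). The other 2 Myb probe sets did not share this: 1422734_a_at stood at -0.02 in E2A-/- and 0.31 in Lyl1-/-, and 1450194_a_at at 0.14 and 0.26. Runx1 had 6 tested probe sets, which ran from -0.46 (1440878_at) to 0.04 in E2A-/- and from -0.15 (1440878_at) to 0.11 in Lyl1-/-. Without Lyl1-/- 3 the Lyl1-/- value of Runx1 1440878_at was -0.00.

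Genes of the T cell receptor and its signalling were near the floor at 33 of 41 probe sets, where 68.3% of all probe sets lay. Of the 22 genes, 15 had no probe set above it. The defining gene Cd3g read 57.4 to 59.6 on the E2A-/- arrays, 58.4 to 60.0 on the Lyl1-/- arrays and 56.3 to 60.6 on the WT arrays. Cd3e read 105 to 112, 103 to 111 and 107 to 120.1 in the same order. Summed over the list's 22 genes, the intensity was 2011 to 2151 on E2A-/- arrays, 2073 to 2198 on Lyl1-/- arrays and 2095 to 2187 on WT arrays. Of 17 tested probe sets 0 passed by limma, with 1 higher and 2 lower in E2A-/- at an unadjusted p under 0.05 (2.97% and 5.11% of all tested probe sets) and 2 higher in Lyl1-/- (3.48% of all). Thy1, a surface protein of T cells that stem cells also carry, read 127, 122 and 112 on the E2A-/- arrays, 119, 121 and 99.0 on the Lyl1-/- arrays and 87.6, 97.6 and 88.6 on the WT arrays. Its difference was 0.38 in E2A-/- (limma adjusted p = 0.429) and 0.28 in Lyl1-/- (limma adjusted p = 0.593). The adaptor gene Lat stood at -0.40 in E2A-/- and -0.17 in Lyl1-/-, with readings of 179, 137 and 178 on WT 1, 2 and 3. Under the alternatives the Lat values ran from -0.69 to -0.21 in E2A-/- and from -0.36 to 0.02 in Lyl1-/-. The kinase gene Fyn stood at -0.41 in E2A-/- and -0.25 in Lyl1-/- at 1417558_at, and at -0.25 and -0.31 at 1448765_at. Ubash3a (1456065_at), a regulator of T cell receptor signalling, read 214, 223 and 131 on the Lyl1-/- arrays and 135, 111 and 137 on the WT arrays. Lyl1-/- 3 thus lay within the WT range. In Lyl1-/- Ubash3a stood at 0.59 at this probe set and 0.03 at the other of its 2 tested probe sets. Each of these was short of the threshold. In bulk RNA, fewer cells of a type and less RNA per cell cannot be told apart.

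**Figure D4:**
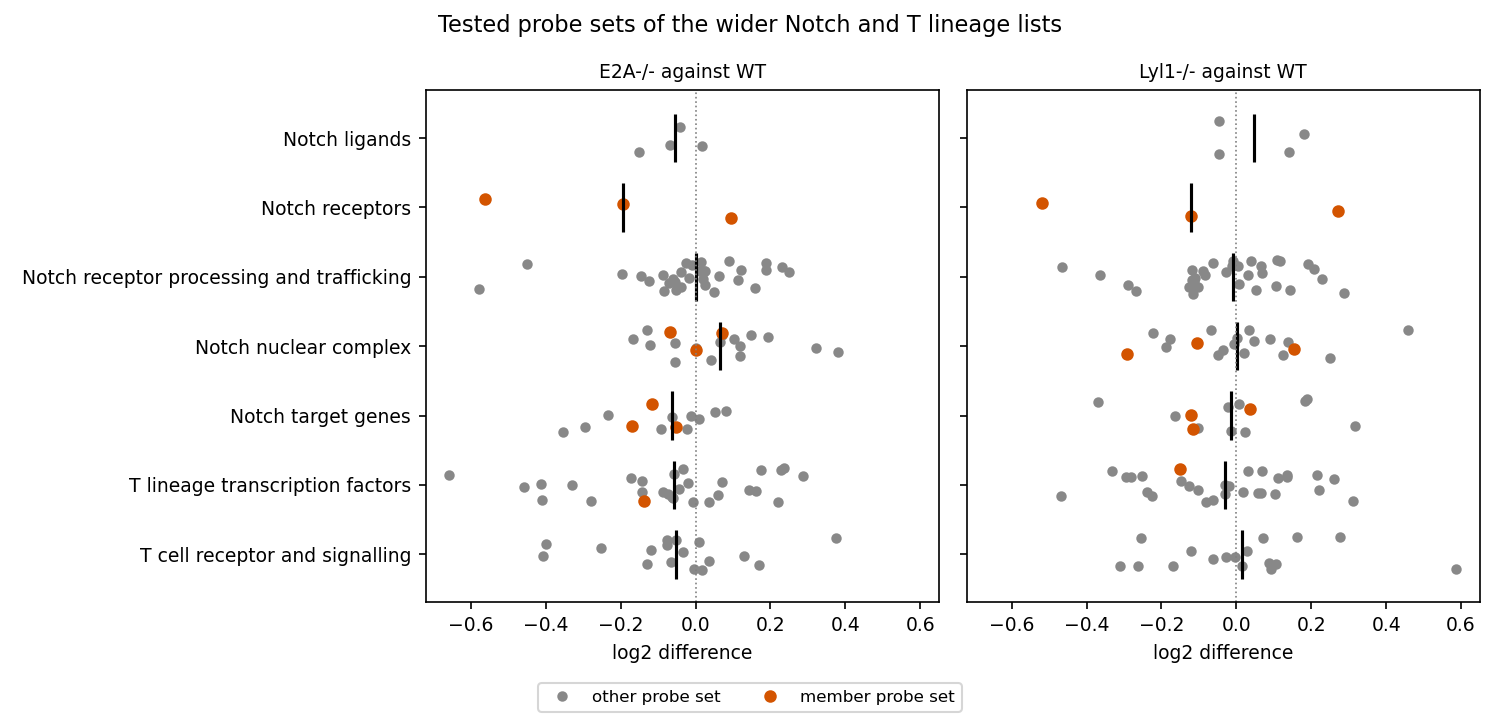
Log2 difference from WT of each tested probe set of the 7 wider lists, in E2A-/- (left) and Lyl1-/- (right), with member probe sets in orange and the list median as a black line. List medians lie between -0.19 and 0.06 in E2A-/- and between -0.12 and 0.05 in Lyl1-/-.

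The genes whose pattern over the 8 samples was most like that of Notch1 1418634_at, among 11963 other tested genes, were Hcn3 (Pearson r 0.97), Mx2 (0.96) and Cbfa2t3 (0.94). These are the highest of many values over 8 points, are given as a description, and all 3 share with Notch1 the lowest WT reading on WT 2. Cbfa2t3, a corepressor that binds E proteins, read 297, 218 and 246 on the E2A-/- arrays, 312, 249.8 and 317 on the Lyl1-/- arrays and 492, 321 and 457 on the WT arrays. Hcn3 and Mx2 had means near the floor, with all readings between 74.7 and 106.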

How the data were processed

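The authors deposited a linear intensity for each probe set on each array, although log2 values had been assumed. RMA and oligo are the tools listed in the submitters' processing notes; versions and the background step are not given in the sources used here. Arrays already had similar distributions, with medians of 77.9 to 79.2, lowest values of 42.1 to 45.1 and highest values of 17430 to 19223. Differences of dim genes may be understated, which was not tested. Log2 was taken with no pseudocount. The number of arrays limits the precision.

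Of 45101 probe sets, 64 controls were left out, and 932 with several genes and 9160 with none were not tested. A linear model of 3 genotypes was fitted with limma 3.58.1 in R 4.3.3 to 20402 probe sets above the array median on at least 3 of 9 arrays (8 samples, 5 residual degrees of freedom). P-values are Benjamini-Hochberg adjusted over all of these within a comparison, with a threshold of 0.05. WT 1 and WT 3 were averaged since they were the closest pair, as known from earlier work on these data. The model was also run on simulated data as a check of the code. That run was not used to judge the 0 calls among the members.

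The members and lists were chosen with earlier results of these data known. Named were all member probe sets, marker genes, genes described as near the floor, and the 3 genes most like the member of smallest p. From each wider list up to 3 genes of smallest p per comparison with WT were eligible, but not all are described. Left out were Hes5, Dtx3, Dtx2, Satb1, Tle1, Snw1, Adam10 and Pofut1.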

Additional observations from a re-analysis of the deposited data

How the results depend on the processing

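Under each of 24 alternatives 0 member probe sets passed the threshold by limma in any comparison. The count at an unadjusted p under 0.05 ran from 0 to 2 per comparison. The lowest limma adjusted p of a member under any alternative was 0.0814, for Notch1 1418634_at in E2A-/-, with the replicate number as a block on 9 separate arrays (difference -0.65). Whether equal numbers pair the samples is not known. Correlations of same-numbered deviations ran from -0.14 to 0.25. They cannot settle it, since differently numbered arrays were not compared, so this fit is not read as a paired test. With 9 separate arrays and no block that adjusted p was 0.208. Of 690 member values under the alternatives 38 changed sign, none of them called and none for Notch1 against WT. The 11 probe sets near the floor stayed 11 under each of the 16 alternatives run for them.

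The count of all probe sets called (45 in E2A-/- against WT, 44 in Lyl1-/- against WT, 15 in E2A-/- against Lyl1-/-) was less stable. Leaving out 1 array at a time gave 15 to 54, 12 to 63 and 4 to 26. Against WT, in E2A-/- and Lyl1-/-, it was 15 and 14 without WT 2, 27 and 28 without E2A-/- 2, 20 and 12 without Lyl1-/- 1, and 19 and 13 without Lyl1-/- 2, and 23 in E2A-/- without E2A-/- 3. Between the knockouts it was 4 without E2A-/- 3, Lyl1-/- 1 or Lyl1-/- 2, 26 without Lyl1-/- 3 and 10 without E2A-/- 2. In E2A-/- and Lyl1-/- against WT it was 154 and 149 with 9 separate arrays, 94 and 88 with the replicate block, 23 and 27 with the stricter filter, 27 and 23 with 1 probe set per gene, 24 and 18 after averaging the probe sets of a gene, and 21 and 24 without WT 1 and 3. Adding sex as a covariate gave 26 and 12, and dropping both arrays of high actin ratio (WT 2, E2A-/- 2) gave 15 and 12. In E2A-/- against WT it was 14 with only the 2 groups compared and 11 without E2A-/- 2 and 3. In E2A-/- against Lyl1-/- it was 4 without E2A-/- 2 and 3, 9 with the sex covariate and 6 without the arrays of high actin ratio. Fits that drop arrays leave fewer samples; for the others the cause was not tested. Where 1 sample of a group is left, its spread is taken from the other groups.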
